A study of Mus musculus with 7 samples.

Results

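The insulin-like growth factor (IGF) axis of mouse embryonic fibroblasts (MEFs) was read as 10 genes, the ligands *Igf1* and *Igf2*, the receptors *Igf1r* and *Igf2r*, and the binding proteins *Igfbp2* to *Igfbp7*. They were chosen by gene symbol out of the 49382 genes of the expression table, each symbol stood on 1 row, and all 10 passed a mean of 2 TPM (transcript abundance set so that the values of a library sum to 1000000). The data are RNA-seq libraries of wild-type primary MEFs, grown from E13.5 to E14.4 embryos after the head and red tissue had been taken off, and used at passages 3 to 7. Of the 7 libraries, 1 was of untreated cells (control) and the others were of cells under 6 stresses, 1 library for each. Medium without glucose, medium without glutamine, 0.1% oxygen (hypoxia) and 1 μM thapsigargin (ER stress) were applied for 10 hours. Sodium arsenite at 10 μM (oxidative stress) and 100 mM NaCl (osmotic stress) were applied for 3 hours. The labels give no time for the control, which served as the reference for both durations. Between conditions of 3 and 10 hours, the kind of stress and its duration cannot be told apart. Thapsigargin blocks the calcium pump of the endoplasmic reticulum (ER), and arsenite binds thiol groups. Without replicates, no difference could be set against the spread between cultures, no neighbours in an order of levels could be called different, and no p-value is given. The labels do not say whether the libraries came from 1 preparation of MEFs or several.

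IGF-I and IGF-II are secreted growth factors that act through IGF1R, a receptor tyrosine kinase that signals through insulin receptor substrates to PI3K and AKT. IGF2R, the cation-independent mannose 6-phosphate receptor, takes up IGF-II for breakdown in the lysosome and sorts lysosomal enzymes. The binding proteins hold IGFs outside the cell, and proteases that cut them release the ligand. Changes are given below as the difference of log2(TPM + 1) between a condition and the control library. A change was counted when it was more than 2-fold on that scale, and the same rule was applied to all 12909 genes that passed the mean of 2 TPM, called all genes below. TPM values are scaled by transcript length, so the levels of different genes can be set side by side within a library.

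Under thapsigargin *Igfbp4* and *Igf1*, 2 of the 10 genes, passed the 2-fold rule downwards and none passed it upwards. By this rule 11.0% of all genes fell there, 8.60% rose and 19.6% did either, so the count of 2 of 10 is near the background. At 1.5-fold 5 of the 10 genes were lower, beside 21.3% of all genes. The other 5 conditions gave 0 of 10 each, where the share of all genes past the rule in either direction was 4.24% in glucose depletion, 6.21% in hypoxia, 6.41% in glutamine depletion, 8.78% in oxidative stress and 11.8% in osmotic stress. With 10 genes, a count of 0 is close to these background shares too. Counting differences of any size, ER stress gave the lowest value of the 7 libraries for 8 of the 10 genes, all but *Igf2r* and *Igfbp3*, and for 23.9% of all genes. The median log2 change of the 10 genes in ER stress was -0.60, beside 0.00 over all genes. Osmotic stress gave the highest value for 6 of the 10 genes, beside 1748 of the 12909. The heat map of log2 changes shows this arrangement.

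**Figure D1:**
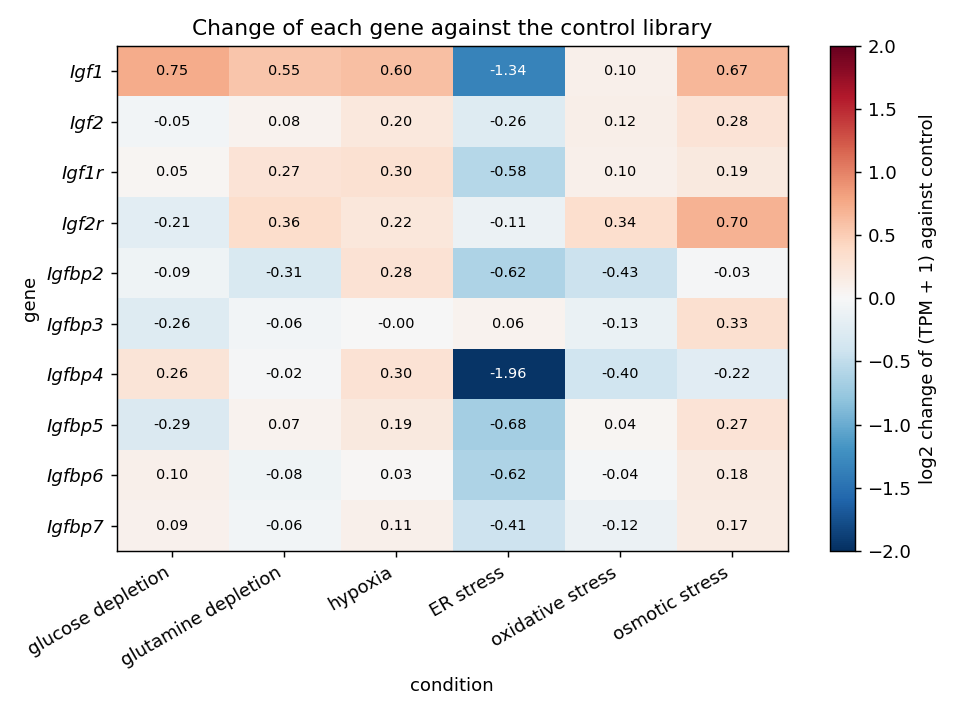
Heat map of the log2 change of (TPM + 1) against the control library, with the 10 genes as rows and the 6 conditions as columns, 1 library each. The darkest cells are *Igfbp4* (-1.96) and *Igf1* (-1.34) in ER stress, and no other cell passes 1 in either direction.

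The ligands differed by about 2 orders of magnitude. *Igf2*, the fetal growth factor gene that is expressed from the paternal allele, stood at 945 TPM in control cells, 912 in glucose depletion, 997 in glutamine depletion, 1089 in hypoxia, 788 in ER stress, 1028 in oxidative stress and 1148 TPM in osmotic stress. In control cells it was the 180th most abundant of the 12909 genes, and its log2 changes stayed between -0.26 in ER stress and 0.28 in osmotic stress. *Igf1*, the main postnatal ligand, stood at 9.40 TPM in control cells, 16.5 in glucose depletion, 14.2 in glutamine depletion, 14.8 in hypoxia, 3.12 in ER stress, 10.1 in oxidative stress and 15.5 TPM in osmotic stress. Control and oxidative stress lay close together, 4 conditions lay above them, and ER stress lay below, at 33.2% of the control level.

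*Igf1* fell in ER stress with a log2 change of -1.34, and 6.42% of all genes had a lower value there. This call depends on the pseudocount because the gene is low. With 5 TPM in place of 1 TPM added to each value the change was -0.83, within 2-fold. With 0.1 TPM added it was -1.56. In the other direction, *Igf1* was the one gene of the axis with log2 changes above 0.5 in several conditions, 0.75 in glucose depletion, 0.67 in osmotic stress, 0.60 in hypoxia and 0.55 in glutamine depletion. None reached 2-fold. The changes in glucose depletion, hypoxia and osmotic stress passed 1.5-fold upwards, as did 3.47%, 7.23% and 6.56% of all genes there. Each of these values is taken against the same control library, in which *Igf1* was the second lowest of the 7. Set against the glucose depletion library instead, *Igf1* had log2 changes of -0.08 in osmotic stress, -0.15 in hypoxia, -0.20 in glutamine depletion, -0.65 in oxidative stress and -2.08 in ER stress. The ratio of *Igf2* to *Igf1* TPM was 101 in control cells, between 55.4 and 74.0 in glucose depletion, glutamine depletion, hypoxia and osmotic stress, 102 in oxidative stress and 253 in ER stress.

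**Figure D2:**
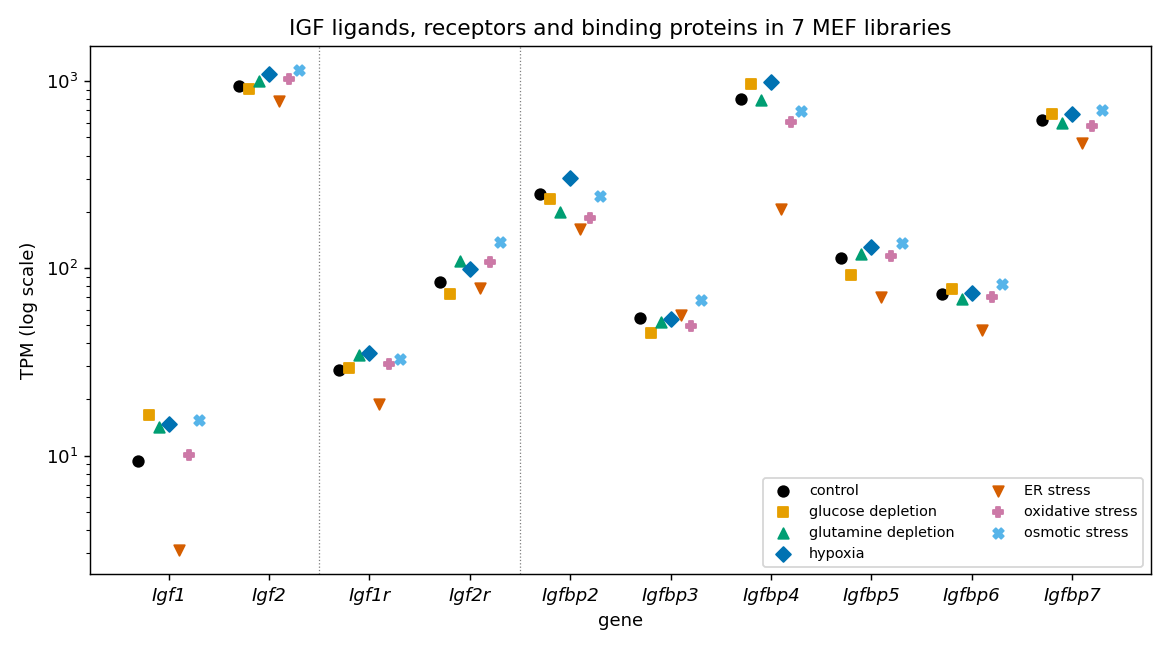
TPM on a log scale of the 10 genes in the 7 libraries, 1 point per library, with dotted lines between ligands, receptors and binding proteins. ER stress, the downward triangle, stands apart from the other 6 libraries for *Igf1* (3.12 TPM) and *Igfbp4* (206 TPM).

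*Igf2* lies on chromosome 7 from 142650766 to 142666816 on the reverse strand of GRCm38, 72622 bases from *H19*, a noncoding RNA gene of the same imprinted domain that is expressed from the maternal allele. *H19* stood at 1581 TPM in control cells, 2639 in hypoxia and 532 TPM in ER stress, and between 1249 and 1545 TPM in the other 4 libraries. It fell by 1.57 on the log2 scale in ER stress, where *Igf2* had a log2 change of -0.26. *Ins2*, 11839 bases from *Igf2* on the other side, was at 0.540 TPM in glucose depletion and listed at 0 in the other 6 libraries.

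Neither receptor changed by more than 2-fold. *Igf1r*, on chromosome 7 from 67952827 to 68233668, stood at 28.6 TPM in control cells, 29.5 in glucose depletion, 34.6 in glutamine depletion, 35.5 in hypoxia, 18.8 in ER stress, 30.8 in oxidative stress and 32.7 TPM in osmotic stress. It was lowest in ER stress, at 65.8% of control (log2 change -0.58), and its log2 changes in the other 5 conditions lay between 0.045 and 0.30. *Igf2r* stood at 84.9 TPM in control cells, 73.4 in glucose depletion, 109 in glutamine depletion, 99.0 in hypoxia, 78.3 in ER stress, 108 in oxidative stress and 139 TPM in osmotic stress. Unlike most genes of the axis it was near its control level in ER stress (log2 change -0.11), and its highest value was that in osmotic stress (0.70), past 1.5-fold. The ratio of *Igf2r* to *Igf1r* TPM was 2.97 in control cells and highest in osmotic stress (4.24) and ER stress (4.17).

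*Igf2r* lies on chromosome 17 from 12682406 to 12769664, and the antisense noncoding RNA *Airn* overlaps it by 28354 bases on the opposite strand. *Airn* went from 4.76 TPM in control cells to 10.2 TPM in osmotic stress (log2 change 0.96), the same condition in which *Igf2r* was highest. The libraries were made with a kit that keeps strand, but Kallisto was run with its default settings, which do not use strand. Reads from any transcript sequence that both genes share thus cannot be told apart. The overlap is of whole genes, introns included, and the part of it in transcripts was not measured. The other genes of the lysosomal sorting list stayed within 2-fold in all 6 conditions, with 0 of 7 changed. Of all genes, 4.24% in glucose depletion to 19.6% in ER stress passed the rule. With 7 genes, a count of 0 cannot be set apart from these shares. Among them *M6pr*, the cation-dependent mannose 6-phosphate receptor, stood at 109 TPM in control cells and 75.2 TPM in osmotic stress (log2 change -0.53).

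The 6 binding protein genes together held 1919 TPM in control cells, and *Igfbp4* and *Igfbp7* made up 74.5% of it. *Igfbp4*, which encodes a binding protein known mainly as an inhibitor of IGF action, stood at 805 TPM in control cells, 966 in glucose depletion, 793 in glutamine depletion, 989 in hypoxia, 206 in ER stress, 609 in oxidative stress and 691 TPM in osmotic stress. Its level in ER stress was 25.6% of control, with a log2 change of -1.96, and it was the 355th most lowered of the 12909 genes. It was the one gene of the axis past 3-fold there, beside 4.31% of all genes. Its log2 changes in the other conditions lay between -0.40 in oxidative stress and 0.30 in hypoxia. Pseudocounts of 0.1 and 5 TPM gave -1.96 and -1.94 in ER stress, and the glucose depletion library as reference gave -2.22.

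*Igfbp2* stood at 249 TPM in control cells, 235 in glucose depletion, 201 in glutamine depletion, 304 in hypoxia, 162 in ER stress, 186 in oxidative stress and 244 TPM in osmotic stress. *Igfbp5*, which encodes a binding protein that also attaches to extracellular matrix, stood at 114 TPM in control cells, 92.5 in glucose depletion, 119 in glutamine depletion, 130 in hypoxia, 70.7 in ER stress, 117 in oxidative stress and 137 TPM in osmotic stress. These genes lie tail to tail on chromosome 1, *Igfbp2* from 72824503 to 72852474 and *Igfbp5* from 72857932 to 72874884, with 5457 bases between them. Their log2 changes were close in ER stress (-0.62 and -0.68) and hypoxia (0.28 and 0.19) and further apart in oxidative stress (-0.43 and 0.04), glutamine depletion (-0.31 and 0.07) and osmotic stress (-0.03 and 0.27). None passed 2-fold.

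*Igfbp6*, whose product prefers IGF-II over IGF-I, ranged from 47.0 TPM in ER stress to 82.4 TPM in osmotic stress, with 72.6 TPM in control cells. *Igfbp7*, whose product binds IGFs weakly and is a matrix and vessel protein, ranged from 468 TPM in ER stress to 702 TPM in osmotic stress, with 623 TPM in control cells. *Igfbp3*, which encodes the main carrier of IGFs in blood, was the one gene of the axis above control in ER stress, at 56.5 against 54.0 TPM (log2 change 0.06). Its range ran from 44.9 TPM in glucose depletion to 68.0 TPM in osmotic stress. *Igfbp3* lies on chromosome 11 from 7206086 to 7213923, 3539 bases from *Igfbp1*, a binding protein gene known from liver, which was listed at 0 in all 7 libraries.

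**Figure D3:**
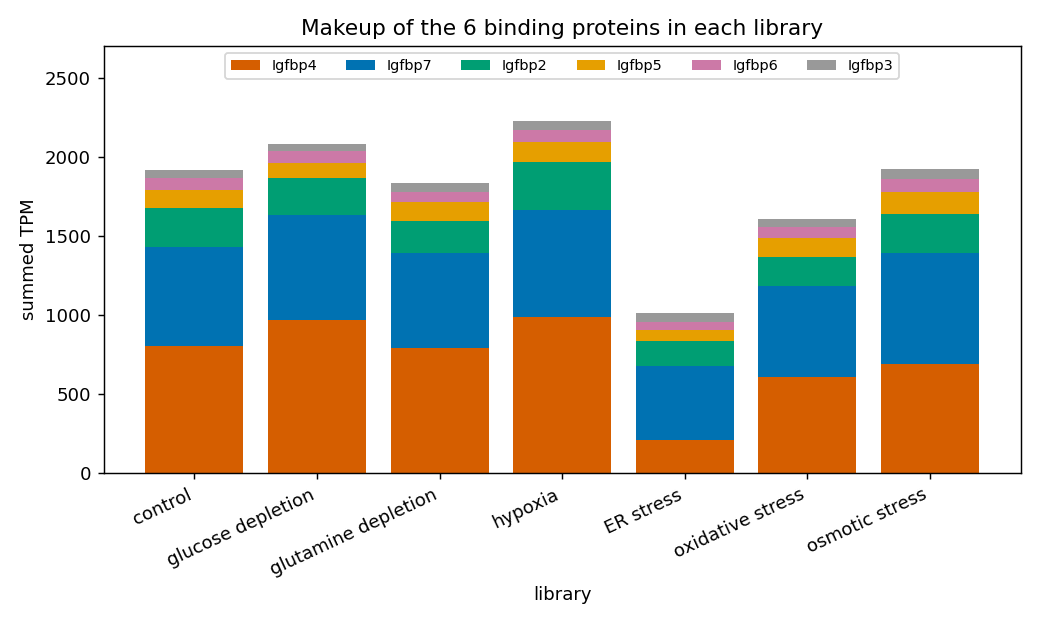
Stacked bars of the TPM of the 6 binding protein genes in each of the 7 libraries, from a baseline of 0. The bar of ER stress is the shortest, 1010 TPM, and the *Igfbp4* part makes up 20.4% of it, beside 42.0% in control cells.

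Summed over the 6 genes, binding protein TPM was 1919 in control cells, 2081 in glucose depletion, 1831 in glutamine depletion, 2222 in hypoxia, 1010 in ER stress, 1604 in oxidative stress and 1925 in osmotic stress. ER stress thus stood at 52.6% of control, and *Igfbp4* alone made up 65.9% of the difference. Without *Igfbp4* the sum in ER stress was 72.2% of control. The ratio of *Igfbp4* to *Igfbp7* TPM was 0.441 in ER stress, 1.29 in control cells, 0.984 in osmotic stress and between 1.06 and 1.47 in the other 4 conditions. Ligand TPM stood at 82.9% of control in ER stress, so the ratio of binding protein to ligand TPM was 1.28 in ER stress, 2.01 in control cells and between 1.55 and 2.24 in the other 5 conditions. Without *Igfbp7*, whose product binds IGFs weakly, binding protein TPM was 542 in ER stress and 1295 in control cells. Ligand TPM in the same libraries was 791 and 955. All of these sums and ratios are of RNA and not of protein.

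The promoters of *Igf1*, *Igfbp4* and *Igf2r* are shown because the first 2 genes fell in ER stress and the third had the largest change among the receptors. They are the 250 bases before the RefSeq start of each gene (GRCm38.p6), read 5′ to 3′ on the strand of the gene, with the matches described for each gene in capitals. That of *Igf1* is chr10:87860861-87861110 (plus strand) and holds 1 match to TGANTCA, a looser form of the AP-1 site. That of *Igfbp4* is chr11:99040994-99041243 (plus strand) and holds a TATA box, TATAAA, whose first base is 28 bases before the start. That of *Igf2r* is chr17:12769707-12769956 (minus strand) and holds 2 E-boxes, CACGTG, each of which also contains the hypoxia response core ACGTG. The *Igf2r* window also holds 3 GC boxes, GGGCGG, a letter run found in 35.7% of all windows, and these were left in lower case.
Igf1: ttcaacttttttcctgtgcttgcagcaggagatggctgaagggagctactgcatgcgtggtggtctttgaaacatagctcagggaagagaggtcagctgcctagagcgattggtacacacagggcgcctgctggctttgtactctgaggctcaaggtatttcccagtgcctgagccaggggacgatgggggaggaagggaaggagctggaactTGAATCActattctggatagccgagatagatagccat
Igfbp4: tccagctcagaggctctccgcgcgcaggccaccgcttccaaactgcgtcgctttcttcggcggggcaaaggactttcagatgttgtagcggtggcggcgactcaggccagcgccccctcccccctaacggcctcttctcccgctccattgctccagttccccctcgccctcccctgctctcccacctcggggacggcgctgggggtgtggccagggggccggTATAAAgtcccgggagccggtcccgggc
Igf2r: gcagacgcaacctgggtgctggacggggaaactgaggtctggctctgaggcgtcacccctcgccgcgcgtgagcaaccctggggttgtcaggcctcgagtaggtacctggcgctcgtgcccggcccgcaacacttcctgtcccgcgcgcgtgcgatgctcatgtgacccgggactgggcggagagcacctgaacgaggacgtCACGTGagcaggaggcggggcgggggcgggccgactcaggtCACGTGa
On both strands, TGANTCA is found in 7.81%, TATAAA in 13.6%, CACGTG in 7.15% and ACGTG in 19.6% of the 32851 RefSeq promoter windows of 300 bases. Other genes of the axis hold them too. TGANTCA and CACGTG were also found in windows of *Igfbp2*, and TATAAA in that of *Igfbp6*. ACGTG was also found in windows of *Igf2*, *Igfbp2* and *Igfbp7*. The ER stress element ERSE, the CRE site TGACGTCA, the ATF4 site TGATGCAA and the FOXO site GTAAACA were not found in any of the 14 windows of the 10 genes, and are found in 0.119%, 1.79%, 0.895% and 3.65% of all windows. The promoters of *Igfbp4* and *Igf2r* are rich in G and C, each with 69.2% in these 250 bases, and that of *Igf1* has 52.8%. RefSeq places this start of *Igf1* inside the gene as GENCODE draws it, which runs on chromosome 10 from 87858265 to 87937042.

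Genes that set how much IGF is freed from the binding proteins were read from a list of 12 proteases and inhibitors, 11 of which passed the mean of 2 TPM. By the 2-fold rule 4 of the 11 fell and 1 rose under thapsigargin, and their median log2 change was -0.70. Of all genes 11.0% fell and 8.60% rose there, with a median of 0.00. The list was chosen with earlier results of these data known. Its counts and median, here and in the other conditions, thus cannot be read as an excess over all genes. *Pappa*, which encodes the protease that cuts IGFBP4, went from 24.7 to 10.2 TPM (-1.20). *Stc2*, which encodes stanniocalcin-2, an inhibitor of that protease, went from 10.5 to 57.3 TPM (2.34). *Stc1*, the other stanniocalcin gene, lay lower in that library, at 1.49 TPM against 3.06 TPM in control cells (-0.70), within 2-fold, so the stanniocalcin genes differed in direction. *Htra3*, a secreted serine protease gene, went from 21.9 to 1.51 TPM (-3.19), *Mmp14* from 678 to 200.4 TPM (-1.75) and *Mmp2* from 266 to 109 TPM (-1.29), the latter both matrix metalloproteinase genes. *Timp1*, an inhibitor of such enzymes, had a log2 change of -0.99, just within 2-fold.

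**Figure D4:**
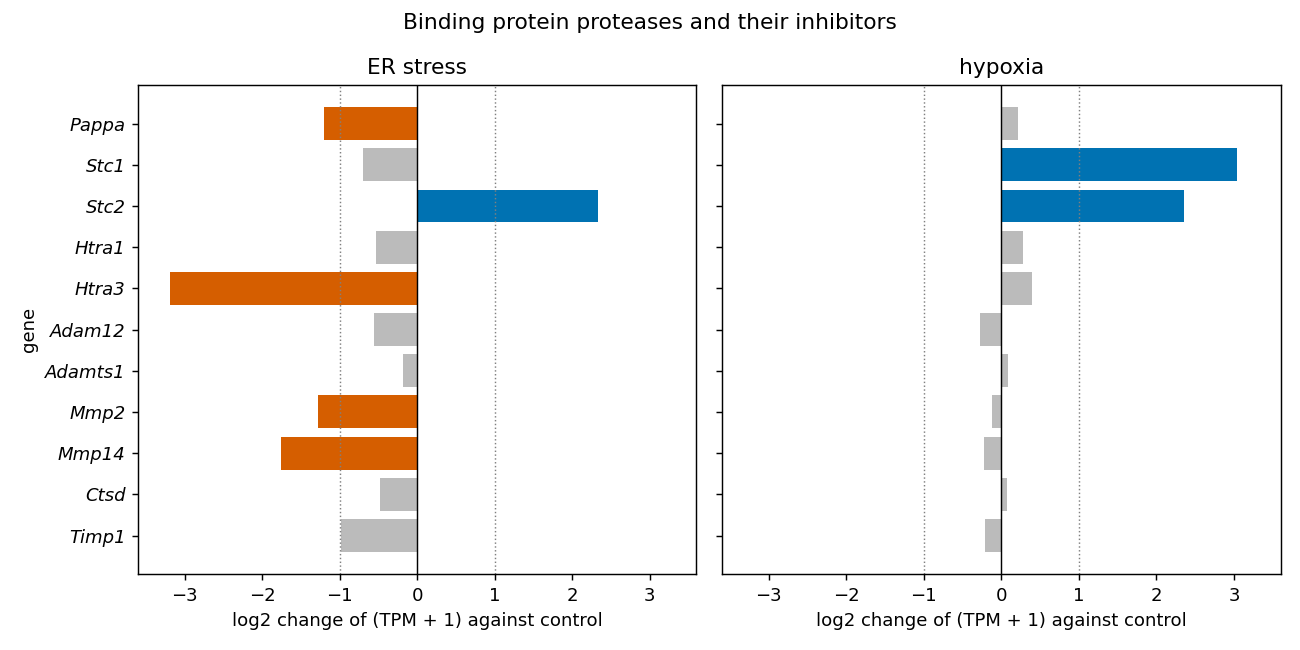
Bars of the log2 change of (TPM + 1) against control for 11 genes of binding protein proteases and their inhibitors, in ER stress (left) and hypoxia (right), with dotted lines at 2-fold. *Stc2* stands at 2.34 in ER stress and 2.36 in hypoxia, *Stc1* at 3.04 in hypoxia, and 4 protease genes lie past the lower line in ER stress.

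In hypoxia *Stc1* and *Stc2* rose and none of the 11 fell, where 3.57% of all genes rose and 2.64% fell. *Stc1* went from 3.06 to 32.3 TPM (log2 change 3.04) and *Stc2* to 58.3 TPM (2.36), while *Pappa* stood at 28.9 TPM (0.22) and *Igfbp4* at 989 TPM. *Stc1* also rose in osmotic stress, to 8.48 TPM (1.22), where 3.08% of all genes rose. *Adamts1*, a secreted metalloproteinase gene, fell from 81.3 TPM in control cells to 38.3 in glucose depletion, 29.6 in glutamine depletion and 25.2 TPM in oxidative stress. Of all genes 2.41%, 3.21% and 4.85% fell in these conditions. The remaining genes stayed within 2-fold throughout, *Htra1* between 118 and 208 TPM, *Adam12* between 26.5 and 52.6 TPM and *Ctsd*, the cathepsin D gene, between 1086 and 1794 TPM.

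Of 9 other genes of the IGF axis, 4 passed the mean of 2 TPM and 0 passed the 2-fold rule in any condition. The share of all genes past it ran from 4.24% in glucose depletion to 19.6% in ER stress. With 4 genes, a count of 0 cannot be set apart from these shares. *Insr*, the insulin receptor gene, stood at 8.69 TPM in control cells and was highest in ER stress at 15.7 TPM (log2 change 0.79), where *Igf1r* was lowest. The genes *Igf2bp1*, *Igf2bp2* and *Igf2bp3* encode RNA-binding proteins of *Igf2* and other transcripts. They stood at 22.4, 69.9 and 22.5 TPM in control cells, with log2 changes between -0.51 and 0.34 over all conditions.

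Downstream of the receptor, all 25 adaptor and PI3K-AKT genes passed the mean of 2 TPM and 0 rose past the 2-fold rule in any condition. Of all genes, 1.83% (glucose depletion) to 8.60% (thapsigargin) rose. Downwards, 1 of the 25 passed the rule without glutamine (3.21% of all genes), 2 under thapsigargin (11.0%) and 1 under arsenite (4.85%). With 25 genes, these counts cannot be set apart from the background shares. *Irs1*, which encodes the main docking protein of IGF1R, fell in 3 conditions. It stood at 13.0 TPM in control cells, 11.3 in glucose depletion, 5.10 in glutamine depletion, 13.0 in hypoxia, 4.60 in ER stress, 4.48 in oxidative stress and 8.75 TPM in osmotic stress. Glutamine depletion, ER stress and oxidative stress thus formed a low group, with log2 changes of -1.20, -1.33 and -1.36. *Irs2* ranged from 5.18 to 9.51 TPM and did not pass 2-fold. *Grb14*, which encodes an adaptor that restrains insulin receptor signalling, fell in ER stress from 44.1 to 15.1 TPM (-1.49).

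Genes known to respond to FOXO factors, which AKT holds in the cytoplasm, were counted over a list of 12, all above the mean of 2 TPM, that shares *Irs2* with the list of adaptors and *Insr* with the IGF axis list. In ER stress 1 rose and 3 fell, so that 4 of 12 passed the rule in either direction, beside 19.6% of all genes. This list too was chosen with earlier results of these data known, so the count cannot be read as an excess. *Klf15* went from 1.40 to 15.2 TPM (log2 change 2.76). This gene lay at 1.40 TPM or less outside ER stress. It reached the mean of 2 TPM only through ER stress, so its place in the count of 12 rests on that library. *Pik3ip1* went from 31.6 to 4.66 TPM (-2.53), *Trib2* from 20.8 to 3.69 TPM (-2.21) and *Ccng2* from 15.5 to 6.47 TPM (-1.14). In hypoxia *Ccng2* rose, to 51.0 TPM (1.66). *Cited2* fell in oxidative stress (-1.02) and *Trib2* in osmotic stress (-1.21). *Klf15* passed the rule downwards in glutamine depletion, from 1.40 to 0.078 TPM (-1.15). Both values lie under 2 TPM, where the pseudocount weighs on the change. None of the 12 passed the rule in glucose depletion, beside 4.24% of all genes.

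Among 7 imprinted genes that lie near the IGF genes or act on growth, 3 fell in ER stress and 0 rose, beside 11.0% and 8.60% of all genes. Besides *H19* these were *Cdkn1c*, a cell cycle inhibitor gene, from 33.0 to 15.2 TPM (log2 change -1.07), and *Meg3*, a noncoding RNA gene, from 428 to 197 TPM (-1.11). *Meg3* also fell in osmotic stress (-1.10). The list was chosen with earlier results of these data known, so 3 of 7 cannot be read as an excess over all genes. *Igf2* and *Dlk1*, with log2 changes of -0.26 and -0.48 in ER stress, did not pass 2-fold. Counting differences of any size, 4 of the 7 imprinted genes were lower in ER stress and 3 were higher. The higher genes were *Plagl1* (0.55), *Grb10* (0.44) and *Airn* (0.16), all within 2-fold.

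The genes whose 6 log2 changes were nearest to those of *Igfbp4* and *Igf1* were sought among 8818 genes whose mean reached 10 TPM, by the root mean square difference. Nearest to *Igfbp4* were *Col3a1*, the type III collagen gene (0.126 log2 units), *Cav1*, the caveolin-1 gene (0.163), and *Mcam*, an adhesion molecule gene (0.175). In ER stress *Col3a1* stood at 352 TPM, against 1479 TPM in control cells. Nearest to *Igf1* were *Podn*, the proteoglycan gene podocan (0.268), *Sdc3*, the syndecan-3 gene (0.279), and the pseudogene *Gm12669* (0.287). The other 8 genes of the axis had a range within 2-fold over the 7 libraries, and were not compared in this way. Of all 12909 genes 52.3% had a range of more than 2-fold over the 7 libraries. Without ER stress 0 of the 10 genes and 32.9% of all genes did.

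The identity of the cells was checked against marker genes. All 10 fibroblast markers passed the mean of 2 TPM in these libraries, and their summed TPM lay between 13858 and 16304 in 6 libraries but at 8766 in ER stress, the library in which *Igfbp4* and *Igf1* fell. Within ER stress *Col1a1* stood at 1740 TPM against 3154 in control cells, *Lum* at 6.42 against 36.3 TPM, and *Pdgfra* at 22.6 against 29.9 TPM. In bulk RNA, fewer cells of a type and less RNA per cell cannot be told apart, and the part of these markers in the results of ER stress was not tested. The study's methods describe a sort of MEFs against the macrophage markers CD45, CD11b and F4/80. Summed macrophage markers (1 of 6 with a mean of at least 2 TPM) ranged from 6.76 to 15.7 TPM and endothelial markers (1 of 5) from 2.94 to 7.31 TPM. Of the hepatic markers, *Alb*, *Ttr* and *Serpina1a* were at 0 in all 7 libraries. Epithelial markers (2 of 5) summed to 41.6 to 159 TPM, highest in hypoxia through *Krt19*, with *Epcam* and *Cdh1* below 1 TPM. Neural markers (2 of 5) summed to 49.6 to 149 TPM, highest in ER stress through *Tubb3*. Muscle markers (1 of 5) summed to 13.8 to 36.2 TPM and cartilage markers (3 of 5) to 40.9 to 76.5 TPM, both lowest in ER stress.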

How the data were processed

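RNA-seq libraries of MEFs were made by the authors with a stranded mRNA kit and sequenced from both ends with 76 bp reads. The authors deposited TPM, estimated with Kallisto 0.43.1 (version per the submitters' processing notes) on the Ensembl release 90 cDNA set of GRCm38 and totalled by gene. TPM keeps no read count, so depth is unknown and no counting error can be given.

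Libraries were mapped to conditions by their treatment labels. Each deposited TPM value was taken as log2(TPM + 1), less the same for the control. The pseudocount and the level of 2 TPM follow the study's methods. The background is the 12909 genes whose mean reached 2 TPM. All 10 genes are named, with every gene of the first 2 of 6 pathway lists above that mean and those of the other lists past 2-fold. *Irs2*, *M6pr*, *Ins2*, *Igfbp1*, *Airn*, *Dlk1*, *Plagl1* and *Grb10* are also named, chosen with their values in view. The genes, lists and motifs were chosen with earlier results of these data known, and TATAAA was added after the sequences were seen. Locations are from GENCODE M21 and promoters from RefSeq, which matched all 10 genes. Protein sequences were not used here. Alternatives were other pseudocounts, thresholds, filters, centring, removal of mitochondrially encoded genes and other references. The steps were tested on simulated data with planted changes well past the threshold and no low values. That test does not cover genes as low as *Igf1*. Scripts ran in Python 3.11.15 with pandas 2.3.3, numpy 2.4.6 and, for figures, matplotlib 3.10.9.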

Additional observations from a re-analysis of the deposited data

How the results depend on the processing

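The count of genes of the IGF axis past 2-fold in ER stress was 2, and was 1 with a pseudocount of 5 TPM or a 3-fold threshold (*Igfbp4* in both) and 5 at 1.5-fold, all of them lower. At 1.5-fold the count was 1 in glucose depletion, 1 in hypoxia (*Igf1* in both) and 2 in osmotic stress (*Igf1* and *Igf2r*), in place of 0. The filter on low values, leaving out mitochondrially encoded genes, centring each change on the median gene and the other references left the counts as they were in every condition that could be compared. The share of all genes past 2-fold depended on which genes were counted. With a mean of at least 10 TPM it was 1.79% in glucose depletion, 4.04% in glutamine depletion, 3.48% in hypoxia, 5.47% in oxidative stress and 6.71% in osmotic stress. For protein-coding genes, a set added after seeing the data, it was 1.04% in glucose depletion, 3.76% in glutamine depletion, 2.95% in hypoxia and 5.25% in oxidative stress. Protein-coding genes gave 8.76% in osmotic stress. In ER stress the share moved less, from 19.6% to 17.1% with the 10 TPM mean and 16.9% for protein-coding genes. Centring changed the sign of 9 of the 60 log2 changes, none larger than 0.13, and the glucose depletion library as reference that of 10 of 50. The largest of these was *Igf1* in osmotic stress (0.67). Median log2 changes of all genes were -0.16 in oxidative stress and -0.12 in osmotic stress, so genes near 0 there lay above the median gene. No paired analysis was possible because each condition had 1 library. Depth is unknown, and *Igf1*, the lowest of the 10 genes, is the one whose values the pseudocount moved past the threshold.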
